A study of Mus musculus with 20 samples.

Results

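The 10 genes followed here encode heat shock chaperones and their partners, and they were measured in single follicular T cells of the mouse spleen. The genes were chosen by name: Hspa1a, Hspa1b, Hsph1, Dnajb1, Dnaja1, Hspa8, Hsp90aa1, Hsp90ab1, Hspd1 and Hspe1. All 10 were present among the 13798 genes of the expression table, and 8 of them passed the filter on low values used for testing across all cells. The cells came from 10 bone marrow chimeras on the C57BL/6 background. In 5 WT chimeras, irradiated recipients received congenic wild type marrow and were immunized at week 6 with the hapten-protein conjugate NP-OVA in alum, and the study's methods add a later booster. In 5 564Igi chimeras, wild type marrow was mixed with marrow from 564Igi mice, whose B cells carry a knocked-in heavy and light chain against ribonucleoprotein, and no immunization was given per the labels. All mice were analysed 10 weeks after irradiation per the labels. Immunization and chimera type therefore cannot be told apart. The 564Igi marrow sets the B cell clone, and only the 564Igi chimeras are described as a mixed graft. The sorted T cells were CD4+CXCR5+PD1+ cells, and the study's methods add a gate on a congenic marker. Each mouse gave 1 droplet library of 5′ RNA ends, named here by mouse and, where needed, by the library names T34 (564Igi mouse 34) and T36 (WT mouse 36).

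Heat shock chaperones bind unfolded or partly folded proteins and help them to reach or keep their shape. Hsp70 proteins (Hspa1a, Hspa1b and Hspa8) take substrates from J-domain partners (Dnaja1 and Dnajb1) and are reset by exchange factors such as Hsph1, Hsp90 proteins (Hsp90aa1 and Hsp90ab1) finish the folding of kinases and receptors, and Hsp60 with its lid Hsp10 (Hspd1 and Hspe1) folds proteins in mitochondria. Heat, tissue dissociation and other stress release heat shock factor 1, which binds repeated units of the letters GAA and TTC in front of many of these genes, and activated lymphocytes also make more of them.

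The table held 28192 cells, 14965 from WT and 13227 from 564Igi chimeras, with 1121 to 4030 cells and 3424280 to 15241983 raw UMIs per library. Values were UMI counts that the authors had corrected for depth with sctransform in WT and 564Igi cells separately, so every comparison of the conditions crosses 2 normalizations. Of the defining markers, Cd3e was found in 98.8% to 99.8% of cells per library, Cd4 in 63.3% to 69.6% and Pdcd1 in 62.5% to 81.7%, while Cxcr5 was found in 27.4% to 48.3% and Bcl6 in 8.92% to 13.1%. All 11 cluster markers that were checked were found more often in their own cluster than in the other cells in 10 of 10 mice, and those include Foxp3 in regulatory Tfr cells and Sostdc1 in the cluster named for it. Of the cell barcodes, 491 were found in more than 1 library. The number that chance would give was not computed, so no shared cells are read from this. The table held no other cell type in which a background of free RNA could be read.

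The promoter windows show which members carry the heat shock units, and 5 stretches of 30 bases are printed because they hold those units upstream of the start site. RefSeq windows of 250 bases before and 50 bases after the start (GRCm38.p6) were at hand for 7 of the 10 genes. The pattern GAANNTTC or TTCNNGAA, each of which reads the same on both strands, stood in at least 1 window of 6 of the 7 genes, against 17% of the 27025 genes with a window. Dnajb1 was the member without it. A row of 3 such units stood in Hsph1, Hspd1 and Hspe1, and in 0.662% of all genes with a window, and such a row also holds the pair. In Hsph1 the row lies after the start. TATAAA on the gene strand stood in 0 of the 7 members and in 9.77% of all genes with a window. A match is only a match of letters. Capitals mark the units.
Hspa1a, chr17:34972242-34972271, minus strand: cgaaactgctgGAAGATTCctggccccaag
Hspa1b, chr17:34959324-34959353, minus strand: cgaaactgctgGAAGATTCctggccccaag
Dnaja1, chr4:40722333-40722362, plus strand: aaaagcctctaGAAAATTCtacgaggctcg
Hsph1, chr5:149636351-149636380, minus strand: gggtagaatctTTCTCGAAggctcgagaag
Hspe1, chr1:55088053-55088082, plus strand: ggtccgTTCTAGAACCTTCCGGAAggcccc

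Counted from the start site, the units began at -104 in both Hspa1a and Hspa1b, whose 250 upstream bases differed at 3 positions. They began at -124 in Dnaja1 and at -33 in Hsph1, and in Hspe1 they formed an unbroken row of 18 bases from -89. Hspe1 and Hspd1 lie on opposite strands of chromosome 1. The Hspd1 start 216 bases from the Hspe1 start has the row printed for Hspe1 in its own window. The upstream-most Hspd1 start lies 95 bases past the Hspe1 start, so that these transcripts overlap, and its window holds no such unit pair. The Hsph1 stretch overlaps the first exon of other annotated Hsph1 transcripts. Hspa1a (chr17:34969190-34972156) and Hspa1b (chr17:34956436-34959238) are neighbouring genes of 1 exon each on the minus strand (GRCm38). Of all stretches of 90 bases in the longest transcript, 49.3% in Hspa1a were also in Hspa1b. Reads from such stretches cannot be placed in 1 of the pair by sequence. How they were counted was not tested, so both genes may be undercounted.

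The inducible Hsp70 genes Hspa1a and Hspa1b were found in few cells, and their share of cells varied strongly from library to library. Hspa1a was found in 316 cells and Hspa1b in 319 cells, 26 cells held both, and 85.4% of the 609 cells with either gene held a summed corrected count of 1. In WT mice 11, 12, 14, 23 and 36 the share of cells with either gene was 0.141%, 7.36%, 3.07%, 0.627% and 0.620%. In 564Igi mice 13, 17, 21, 24 and 34 it was 3.84%, 0.527%, 4.10%, 1.07% and 1.03%. Mice 12, 21, 13 and 14 were high and the other 6 were low, and both conditions held high and low libraries. The exact 95% interval ran from 6.40% to 8.41% in mouse 12 and from 0.0383% to 0.360% in mouse 11, and such intervals cover counting error only. Hspa1b was in 0 of 2844 cells of mouse 11, which allows a share of up to 0.105% of cells with a count and sets no limit on the cells that express the gene. Neither gene reached the limit of 1% of cells in 5 mice, and neither was tested across all cells.

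**Figure D1:**
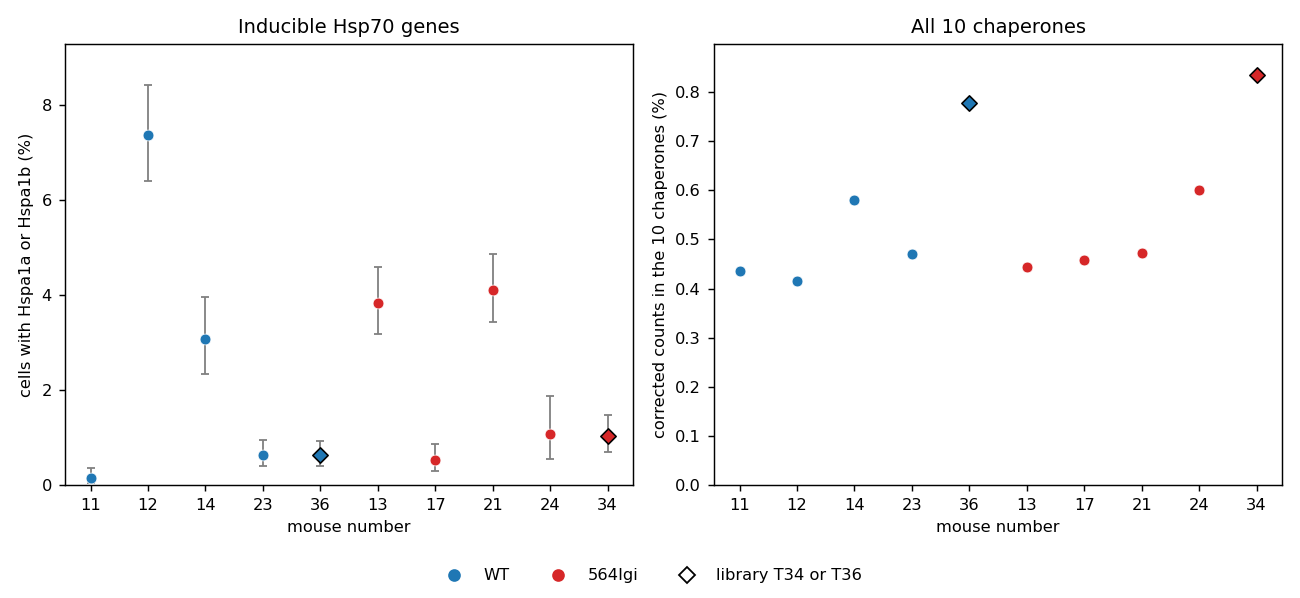
Left, percent of cells with at least 1 corrected count of Hspa1a or Hspa1b in each mouse, with exact 95% binomial intervals. Right, percent of all corrected counts that fall on the 10 chaperones; mice are on the horizontal axis, WT in blue, 564Igi in red, and diamonds mark libraries T36 and T34, which are low on the left (0.620% and 1.03%) and the highest on the right (0.779% and 0.834%).

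Cells with Hspa1a or Hspa1b also held more of the other chaperones. The level used here and in what follows is the mean over cells of log2(corrected count + 1). Hspa8 was higher in cells with either gene than in the rest, within each of the 10 mice, by 0.41 ± 0.37 on the log2 scale (SD over mice). Hsph1, the exchange factor, was higher by 0.25 ± 0.21 and Dnajb1 by 0.15 ± 0.16, each in 10 of 10 mice, while Hspd1 and Hspe1 were higher in 8 of 10. The gap was widest in mice 34, 17 and 36 and did not follow the number of such cells. In library T34 the Hspa8 level was 4.42 in the 30 cells with either gene and 3.34 in the rest, and in mouse 12 it was 2.17 in 198 cells and 2.06 in the rest. The cells with either gene had a median of 4583.5 raw UMIs in T34 against 3442.5 in the rest, and 2886 against 2941.5 in mouse 12. The part of depth in these gaps was not tested. Over all libraries together, either gene was found in 2.06% of activated Tfh, 2.18% of Tfr, 3.14% of Sostdc1 Tfh, 0.276% of central memory Tfh, 1.32% of effector Tfh and 2.64% of interferon stimulated Tfh cells. The exact 95% interval was 0.0334% to 0.993% in central memory and 2.53% to 3.85% in Sostdc1 cells. The libraries give unequal numbers of cells to the clusters. Within mice no pair among the activated, Tfr and Sostdc1 clusters differed by more than 1 SD for Hspa1a or Hspa1b. Of all 15 pairs of clusters, 1 did for Hspa1a and 0 for Hspa1b. In that pair Tfr cells were above effector cells in 10 of 10 mice, by 0.00978 (SD 0.00977). Hspa1a was at 0 in the effector cells of every mouse but 13 and 21. Effector cells numbered 682 in all, so this count of mice rests on values at the floor. No order is read from these shares.

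The other Hsp70 member, Hspa8 (chr9:40800984-40810087, GRCm38), is the constitutive form and was found in nearly every cell. Its share of cells ran from 96.2% to 99.8% over the 10 mice. Its level was 2.35, 2.07, 2.69, 2.49 and 3.24 in WT mice 11, 12, 14, 23 and 36. It was 2.40, 2.52, 2.52, 2.83 and 3.35 in 564Igi mice 13, 17, 21, 24 and 34. The highest mouse of each condition was the one with library T36 or T34, and the conditions overlapped. Hsph1 (chr5:149614287-149636376), which exchanges the nucleotide of Hsp70, was found in 9.33% to 35.6% of cells. Its level was 0.19, 0.10, 0.18, 0.14 and 0.36 in the same WT mice and 0.11, 0.17, 0.13, 0.15 and 0.43 in the same 564Igi mice. Here too mice 36 and 34 stood apart, and the other 8 lay within 0.10 to 0.19.

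The J-domain partners split. Dnaja1 (chr4:40722150-40737149), which delivers substrates to Hsp70, was found in 52.8% to 84.9% of cells. Its level was 0.83, 0.72, 1.16, 0.92 and 1.41 in the WT mice and 0.68, 1.04, 0.88, 0.95 and 1.54 in the 564Igi mice, and mice 36 and 34 were again the highest. Dnajb1 (chr8:83608193-83612653), the stress-responsive partner of Hsp70, had levels of 0.24, 0.32, 0.51, 0.38 and 0.39 in the WT mice and 0.32, 0.42, 0.36, 0.34 and 0.45 in the 564Igi mice. Its highest mouse was WT mouse 14, and mouse 36 lay inside the range of the other WT mice.

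Of the Hsp90 genes, Hsp90ab1 (chr17:45567775-45573271), the constitutive form, was found in 98.5% to 99.8% of cells. Its level was 2.71, 2.66, 3.13, 2.86 and 3.31 in the WT mice and 2.91, 2.82, 2.86, 3.09 and 3.49 in the 564Igi mice. The inducible form Hsp90aa1 (chr12:110690605-110702728) had levels of 0.85, 0.89, 1.04, 0.87 and 1.16 in the WT mice and 0.85, 0.86, 0.92, 0.93 and 1.27 in the 564Igi mice. For both genes mice 36 and 34 were the highest of their condition. Of the mitochondrial pair, Hspd1 (chr1:55077835-55088243) ranged from 0.33 to 0.55 and Hspe1 (chr1:55088132-55091307) from 0.66 to 0.99 over the 10 mice. Mouse 12 was the lowest and mouse 34 the highest for both.

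**Figure D2:**
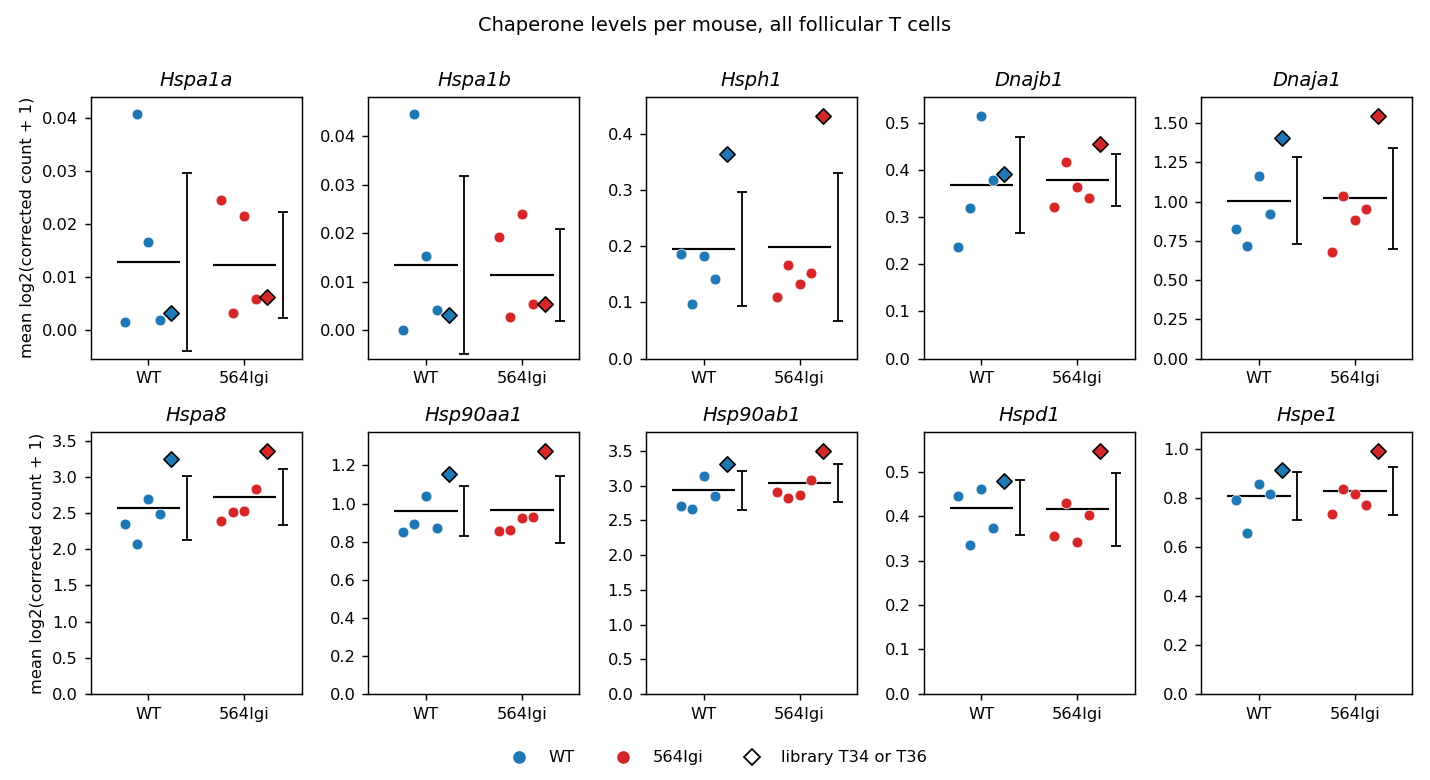
Mean log2(corrected count + 1) of each chaperone in all follicular T cells, 1 point per mouse, WT in blue and 564Igi in red, with the group mean (line) and SD (bar beside the points); each panel has its own vertical axis. Diamonds, libraries T36 and T34, are the highest of their condition for Hsph1, Dnaja1, Hspa8, Hsp90aa1, Hsp90ab1, Hspd1 and Hspe1.

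The conditions were compared to learn whether chaperone levels differ between autoimmune and immunized chimeras, and none of the members passed. The Hspa8 level was 2.57 ± 0.44 in WT and 2.72 ± 0.39 in 564Igi chimeras (SD, n = 5 each). Its difference of 0.15 on the log2 scale (SE 0.18, 95% interval -0.23 to 0.53) was the largest of the 8 tested members, with a limma adjusted p of 0.9997. Dnaja1 differed by 0.01 (interval -0.25 to 0.28) and Hsph1 by 0.00 (interval -0.10 to 0.11). Of the 8 members, 0 were called at an adjusted p below 0.01 and a log2 change above 0.2, against 0.010% of all genes tested, and 0 had an unadjusted p under 0.05. For 0 of the 8 did the mice of the conditions not overlap, against 0.452% of all genes. The members' median difference was 0.01 and that of all genes tested was 0.00.

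Within the clusters the result was the same count. Members called were 0 of 8 in activated Tfh cells (background 0.0101%), 0 of 8 in Tfr cells (0.0200%), 0 of 10 in Sostdc1 Tfh cells (0.0202%), 0 of 8 in central memory Tfh cells (0%), 0 of 9 in effector Tfh cells (0.0104%) and 0 of 9 in interferon stimulated Tfh cells (0.0106%). In each of these limma fits 0 members had an unadjusted p under 0.05. The member farthest from 0 was Hspa8 in activated Tfh cells (0.16, SE 0.19), Tfr cells (0.18, SE 0.18), Sostdc1 Tfh cells (0.17, SE 0.18) and, in the other direction, interferon stimulated Tfh cells (-0.22, SE 0.19). It was Dnaja1 in central memory Tfh cells (-0.18, SE 0.13) and Hsp90ab1 in effector Tfh cells (0.23, SE 0.16). Of the members tested, 1 of 8 was higher in 564Igi chimeras in central memory and 1 of 9 in interferon stimulated cells. In activated cells it was 7 of 8 and in Tfr cells 8 of 8, and the clusters were not tested against each other on this. The central memory fit held 5 WT and 3 564Igi mice, with T36 but without T34, and the interferon stimulated fit 4 of each. In central memory cells Dnaja1 was 1.35 in T36 against a mean of 0.93 in the other 4 WT mice. The part of this imbalance was not tested. A difference between conditions that itself differs between Tfr and activated Tfh cells was found for 0 of 8 members (background 0%), with 0 at an unadjusted p under 0.05. The largest such value was 0.04 for Dnajb1 (SE 0.02, limma adjusted p 0.757).

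Other chaperone lists were also read in this comparison. Of 38 tested co-chaperones, 13 chaperonin genes, 12 mitochondrial chaperones and 14 chaperones of the endoplasmic reticulum, 0 were called. In the last of these lists all 14 genes were higher in 564Igi chimeras, with a median of 0.07, against 3823 of all 9959 genes tested. An unadjusted p under 0.05 in the limma fit was found for 6 of the 14, against 318 of the 9959. Hspa5, the main Hsp70 of the endoplasmic reticulum, differed most, at 1.33 ± 0.18 in 564Igi and 1.21 ± 0.12 in WT (n = 5 each, log2 difference 0.13, limma adjusted p 0.9997). Among the co-chaperones the highest difference was that of Ubb, a ubiquitin gene, at 0.05, and the lowest that of Hspa4, an exchange factor, at -0.02. The chaperonin genes lay between -0.0065 for Pfdn2 and 0.08 for Pfdn5, both prefoldin subunits, and the mitochondrial chaperones between -0.02 for Yme1l1 and 0.0051 for Hspa9. In the endoplasmic reticulum Dnajb9 was the lowest at 0.0059. Of 16 immediate early genes, which respond within minutes to stimulation and to handling, 0 were called, between -0.04 for Ier2 and 0.12 for Jund. Outside the endoplasmic reticulum list, 0 genes of these lists had an unadjusted p under 0.05 in the limma fit.

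The libraries T34 and T36 carried the larger differences. These libraries were set against the other 8 with condition in the fit, and the choice of them was made with earlier results of these data known. The p values and shares of this contrast therefore describe the 2 libraries and are not independent support for a difference. The sources used here give no capture or sequencing run for any library. The study's methods mention batch effects between samples in heat shock genes and name no library. Hspa8 was 3.30 ± 0.08 in the 2 libraries and 2.48 ± 0.23 in the other 8 (SD over libraries, n = 2 and 8, log2 difference 0.81, SE 0.14, limma adjusted p 0.00491), which was the largest difference of all 9959 genes tested. Dnaja1 was 1.48 ± 0.10 against 0.90 ± 0.16 (0.58, SE 0.09, adjusted p 0.00357 by limma). Hsph1 was 0.40 ± 0.05 against 0.15 ± 0.03 (0.25, SE 0.02, adjusted p 7.77e-06 by limma). On the scale of corrected counts, Hspa8 averaged 10.2 per cell in the 2 libraries and 5.40 in the others, and Hsph1 0.460 and 0.154.

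These 3 of the 8 tested members were called, against 0.0803% of all genes tested and 0.0502% that were called higher. Hsp90ab1 (0.52, limma adjusted p 0.0523), Hsp90aa1 (0.31, adjusted p 0.0317), Hspe1 (0.17, adjusted p 0.499) and Hspd1 (0.12, adjusted p 0.325) did not pass, and Dnajb1 had 0.06 (adjusted p 0.794). For 7 of the 8, all but Dnajb1, T36 lay above the other 4 WT libraries and T34 above the other 4 564Igi libraries, against 2.87% of all genes. The members' median difference was 0.28 and that of all genes 0.00. Within condition, Hspa8 was higher by 0.84 in T36 and by 0.79 in T34 than the mean of the 4 others, Dnaja1 by 0.50 and 0.66, and Hsph1 by 0.21 and 0.29. The calls of Hspa8 and Dnaja1 were both lost without WT mouse 11, without WT mouse 36, without 564Igi mouse 24 or without 564Igi mouse 34, when 1 member was called, and 5 were called without WT mouse 14. With each mouse left out in turn the log2 difference stayed at 0.76 to 0.86 for Hspa8 and 0.50 to 0.66 for Dnaja1. Without mouse 34 or mouse 36, 1 library stands against 8 and is taken to vary as the others do. The fit without limma's trend called 0.

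The rise in the 2 libraries ran through all 6 clusters. In 11 comparisons of 1 library with the others of its condition within a cluster, T34 having too few central memory cells, Hspa8, Hsp90ab1, Dnaja1 and Hsph1 were above all other libraries in 11 of 11. Hsp90aa1, Hspd1 and Hspe1 were above all others in 10 of 11, and Dnajb1 in 4 of 11. The Hspa8 difference ran from 0.60 to 1.22 with a median of 0.79, and the Dnaja1 difference from 0.43 to 1.02. Hspa1a was above the others in 1 of 11 and Hspa1b in 0 of 11. The levels of these genes lie so near 0 that a fall could not show as a large log2 difference. Over all cells, Hspa1a averaged 0.0052 ± 0.0024 corrected counts in the 2 libraries and 0.016 ± 0.016 in the others (SD over libraries). Hspa1b averaged 0.0047 ± 0.0021 and 0.015 ± 0.016.

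**Figure D3:**
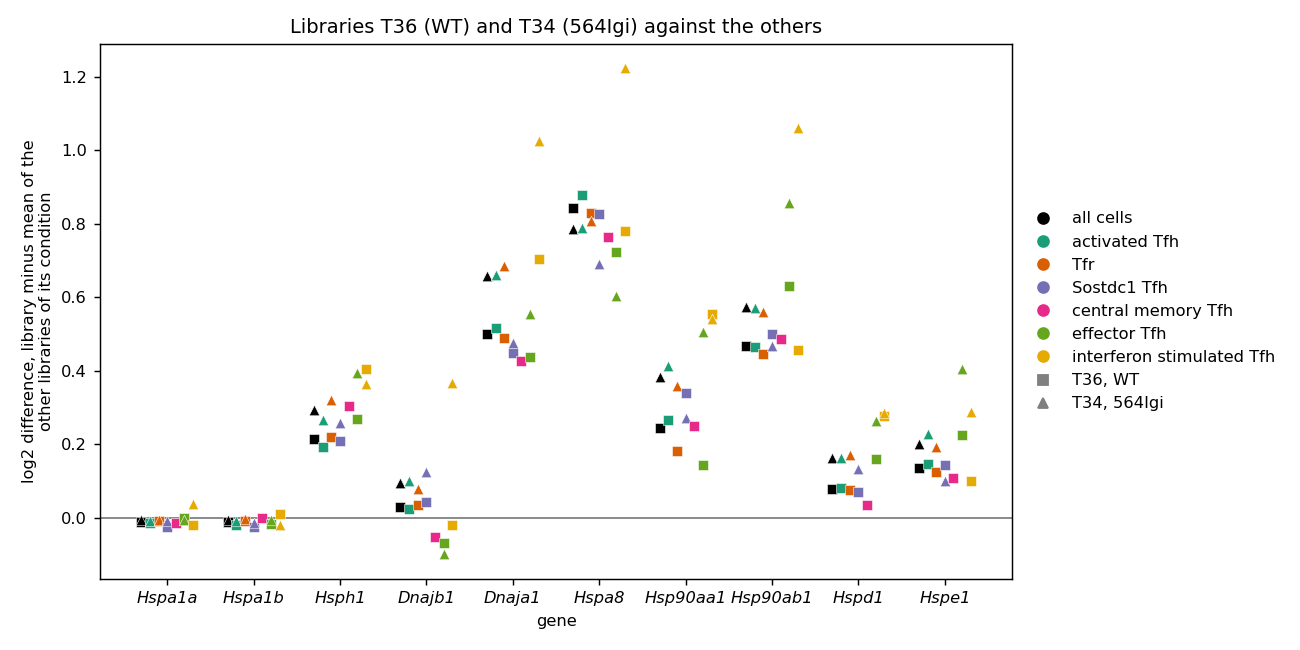
Log2 difference between library T36 (squares, WT) or T34 (triangles, 564Igi) and the mean of the other libraries of its condition, for each chaperone in all cells (black) and in each cluster (colours). Hspa8 lies between 0.60 and 1.22 in the clusters. Hspa1a and Hspa1b have levels near 0, so a fall in them could not show on this scale.

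Other chaperones followed in part. Of 38 co-chaperones, 1 was called: Stip1, which links Hsp70 to Hsp90, was higher by 0.22 (limma adjusted p 0.000374), and Hspa4 was the lowest at -0.09. Of 13 chaperonin genes 0 were called, with the cytosolic subunit Cct4 the highest at 0.12 and the prefoldin subunit Pfdn6 the lowest at -0.03. Of 14 chaperones of the endoplasmic reticulum 0 were called, with Hsp90b1 the highest at 0.18 and Calr the lowest at -0.04, and of 12 mitochondrial chaperones 0 were called, between -0.02 for Yme1l1 and 0.03 for Grpel1. Of the 16 immediate early genes 0 were called and 15 were lower in the 2 libraries, against 6840 of all 9959 genes tested. They ran down to -0.22 for Jund, with Egr2 at 0.03. At an unadjusted p under 0.05 this limma fit held 6 co-chaperones, 5 chaperonin genes, 5 chaperones of the endoplasmic reticulum, 0 mitochondrial chaperones and 5 immediate early genes, against 695 of all 9959 genes.

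Several measures of the 2 libraries were set beside this rise. Their median raw UMIs per cell, 3275 and 3447.5, lay within the 2728 to 4375.5 of the others, and their mean mitochondrial share, 3.72% and 3.44%, within 2.88% to 3.73%. Malat1, a nuclear RNA, was lower in them by 0.78 (limma adjusted p 0.00143). The summed level of the 3 plasma cell markers was 0.40 to 0.52 in the 2 libraries and 0.25 to 0.40 in the others, with Xbp1, which T cells also express, in 33.7% to 40.8% against 22.2% to 33.8% of cells. Sdc1, a defining plasma cell marker, was in 0.103% to 0.174% of their cells and 0% to 0.423% of the others. The summed levels of the B cell (4 of 5 markers in the table), myeloid (3 of 4) and erythroid (3 of 4) lists in the 2 libraries were 0.07 to 0.09, 0.01 to 0.02 and 0.01 to 0.02. In the others they were 0.06 to 0.11, 0.00 to 0.02 and 0.00 to 0.02. The 1 marker of 2 in the table for CD8 T cells and for NK cells gave 0.03 to 0.05 for each list in the 2 libraries, and 0.04 to 0.06 and 0.02 to 0.08 in the others. The part of any of these in the rise was not tested.

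The members were next read across the 6 clusters. The clusters were made from these same cells, so their levels are a description. The clearest order was that of Hspe1, the Hsp60 lid, which was 1.07 ± 0.08 in central memory Tfh cells (n = 8 mice with at least 20 such cells). It was 0.86 ± 0.14 in interferon stimulated, 0.84 ± 0.10 in Tfr, 0.82 ± 0.10 in Sostdc1, 0.79 ± 0.17 in effector and 0.79 ± 0.10 in activated cells. Central memory cells were above activated, Tfr, Sostdc1 and effector cells in 8 of 8 mice each and above interferon stimulated cells in 6 of 6. The neighbours below them in the order differed by less than 1 SD of the difference within mice. Central memory cells had a median of 4027 raw UMIs, against 3461 to 3893 in the other clusters.

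**Figure D4:**
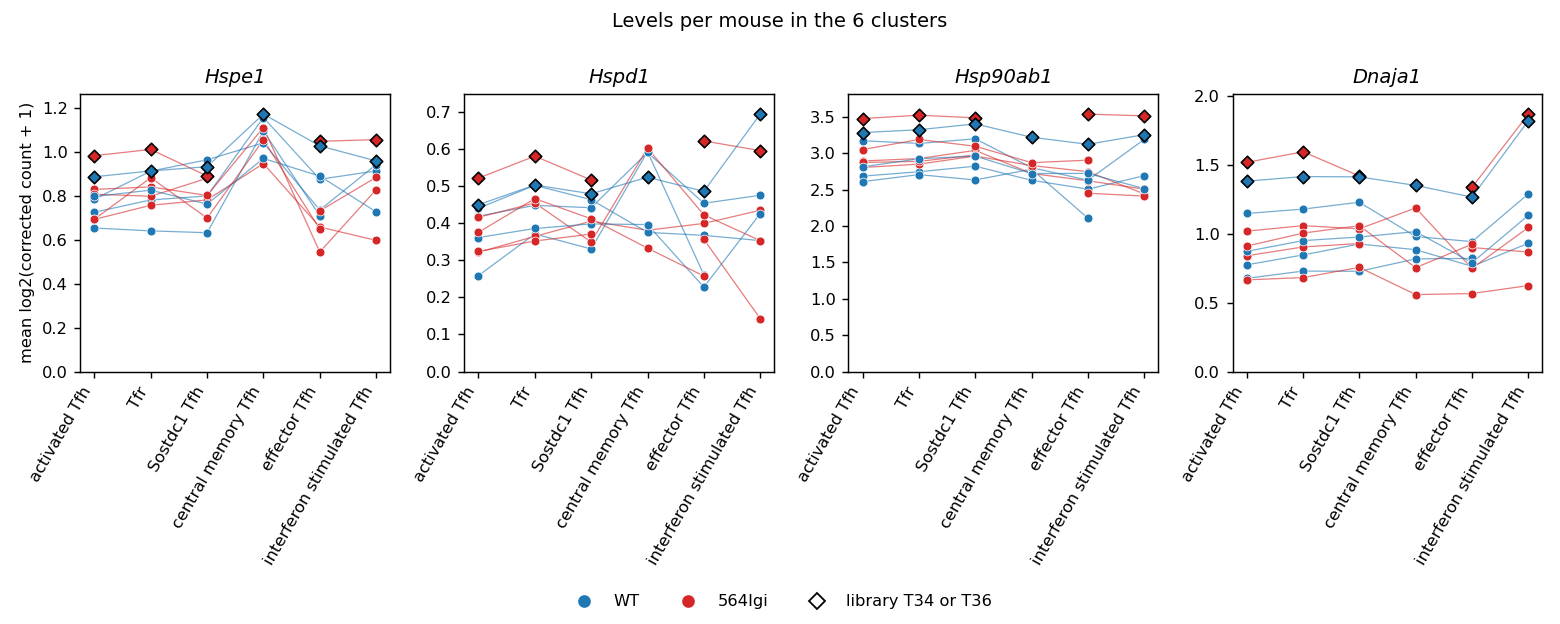
Mean log2(corrected count + 1) of 4 chaperones, chosen after their values were seen, in the 6 clusters; each line is 1 mouse (WT blue, 564Igi red), and clusters with fewer than 20 cells in a mouse are left out. Hspe1 peaks in central memory Tfh cells at 1.07 on average, and the diamonds of T36 and T34 are the highest of their condition for Hsp90ab1 and Dnaja1 in each cluster shown for them.

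Its partner Hspd1 was also highest in central memory cells, at 0.47 ± 0.11, and next in Tfr cells, at 0.44 ± 0.07, where it was above activated cells, at 0.39 ± 0.08, in 10 of 10 mice. Neighbours in its order did not differ by more than 1 SD. Hsp90ab1 was highest in Sostdc1 cells (3.06 ± 0.26) and Tfr cells (3.02 ± 0.26), followed by activated (2.96 ± 0.27), central memory (2.82 ± 0.18), interferon stimulated (2.81 ± 0.44) and effector cells (2.73 ± 0.39). Its Tfr level was above the activated level in 9 of 10 mice, the only neighbours in this order over 1 SD apart. The means of Hsp90aa1 followed the same order at the top, with 1.01 ± 0.15 in Sostdc1 and 0.99 ± 0.14 in Tfr cells, and ended with effector cells at 0.89 ± 0.21. Sostdc1 cells were above Tfr cells in 6 of 10 mice. Of the 15 pairs of clusters 1 differed by more than 1 SD for Hsp90aa1, that of Tfr over activated cells.

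The mean of Dnaja1 was highest in interferon stimulated cells, at 1.2 ± 0.45 over 8 mice, and lowest in effector cells, at 0.91 ± 0.24. In interferon stimulated cells T34 and T36 had 1.87 and 1.82, and the other mice 0.63 to 1.29. Within mice these cells were over 1 SD above activated and effector cells, in 7 of 8 each. They were not so above Sostdc1 (6 of 8), Tfr (5 of 8) or central memory cells (5 of 6). The Tfr level of Dnaja1 was above its activated level in 10 of 10 mice, by 0.06 ± 0.03. Hspa8 was 2.73 ± 0.35 in effector and 2.62 ± 0.40 in activated cells (n = 10 mice each), the ends of its order of means. It was higher in effector than in activated cells in 9 of 10 mice. Central memory cells had 2.71 ± 0.35 over 8 mice. Within those mice they lay above effector cells in 5 of 8, by 0.02 ± 0.20, so no top cluster is read. For Hsph1 and Dnajb1 no pair of clusters differed by more than 1 SD, with ranges of 0.18 to 0.27 and 0.36 to 0.40.

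The authors' heat shock score, built from genes of an ontology term for the response to heat, was also set against condition, mouse and cluster. The study's methods tie this score to the removal of batch effects in heat shock genes between samples, without naming the samples. The mean of the score was -0.011, -0.031, 0.047, -0.016 and 0.081 in WT mice 11, 12, 14, 23 and 36. It was 0.0019, -0.036, -0.037, 0.017 and 0.115 in 564Igi mice 13, 17, 21, 24 and 34. Mice 36 and 34 were the highest of their condition. The difference of 564Igi minus WT was -0.0020 (exact permutation test over 252 assignments, two-sided p = 0.968, n = 5 each, smallest possible p 0.00794). Over 8 or 10 mice the cluster means ran from -0.045 in effector to 0.040 in Tfr cells.

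Within a mouse the score followed some members closely and others hardly. The score comes from the same counts, its gene list was not used here and can hold members, and the authors regressed it out in their normalization, whose part in these values was not tested. Across the cells of each mouse, r between score and level was 0.673 to 0.770 for Hsp90ab1, 0.325 to 0.562 for Hsp90aa1 and 0.254 to 0.522 for Hspa8. It was 0.304 to 0.445 for Hspd1, 0.204 to 0.428 for Hspe1, 0.085 to 0.361 for Hsph1 and 0.057 to 0.330 for Dnaja1. Dnajb1 had -0.011 to 0.167, Hspa1a -0.022 to 0.126 and Hspa1b 0.0019 to 0.199 in 9 mice. For Hsph1, Dnaja1, Hspa8, Hsp90aa1, Hsp90ab1, Hspe1 and Dnajb1, both T34 and T36 lay above the highest of the other 8 mice.

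**Figure D5:**
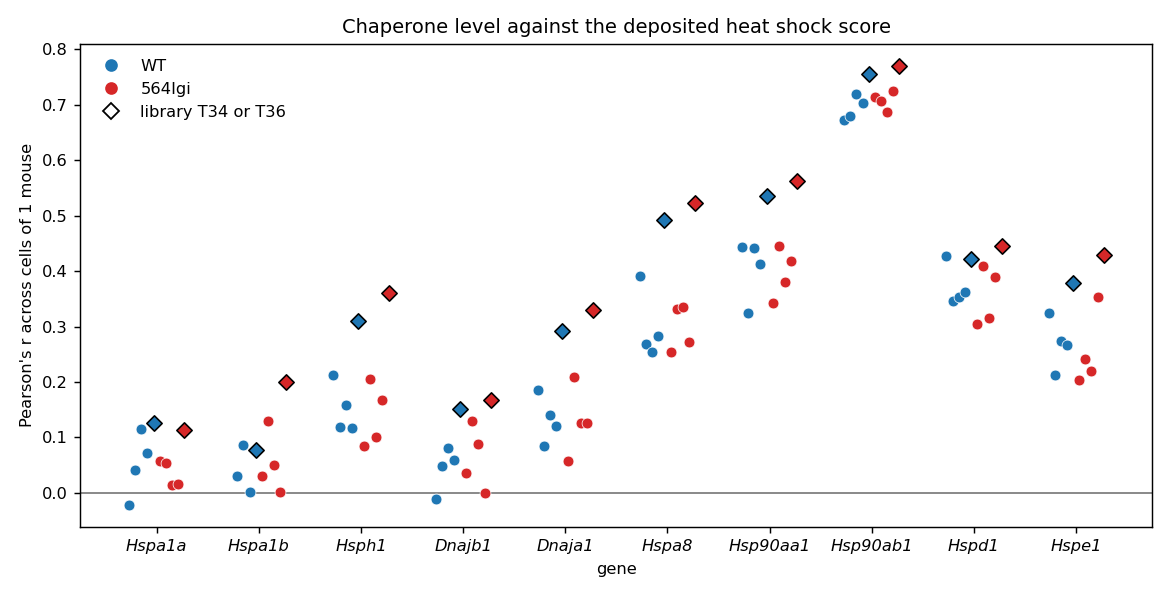
Pearson's r across the cells of 1 mouse between each chaperone's level and the heat shock score, 1 point per mouse (WT blue, 564Igi red, diamonds for T36 and T34). Hsp90ab1 has 0.673 to 0.770 and Dnajb1 -0.011 to 0.167; Hspa1b could not be computed in mouse 11, where it is at 0.

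Among themselves the members were weakly tied. Over the 28 pairs of the 8 more abundant members, the mean r over mice ran from 0.036 for Dnajb1 with Hspe1 to 0.321 for Hspa8 with Hsp90ab1, with a median of 0.139. Hspa8 with Hsp90ab1 reached 0.496 and 0.511 in T36 and T34, against 0.214 to 0.350 in the other 8 mice. The pair Hspd1 and Hspe1 had a mean r of 0.188. The mean r with raw UMIs (log2) was 0.025 for Hspa8, 0.092 for Hsp90ab1, 0.188 for Hspd1 and 0.186 for Hspe1, and the part of depth in the pair values was not tested. Of the 9951 other genes, those most alike to the summed level of the 10 members were Ptma, a histone-binding protein (mean r 0.335 over 10 mice), Eif5a and Eif4a1, translation factors (0.332 and 0.318), Srm, which makes spermidine (0.298), Ppia, a prolyl isomerase (0.294), Mif, a cytokine (0.293), C1qbp (0.286), Ncl, a nucleolar protein (0.279), Apex1, a DNA repair enzyme (0.272) and Fbl, a nucleolar methyltransferase (0.270). The median over all these genes was 0.016.

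Counted per cell, a mean of 4.26 (mouse 12) to 5.42 (mouse 34) of the 8 more abundant members was found. All 8 were found in 6.26% of cells of T34 and 4.32% of T36, and in 0.409% to 2.49% of cells of the other mice. The 10 members took 0.834% and 0.779% of all corrected counts in these libraries and 0.415% to 0.60% in the others. These shares overlapped between conditions, with 0.536% ± 0.150 in WT and 0.561% ± 0.165 in 564Igi chimeras (SD, n = 5 each).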

How the data were processed

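The authors sorted splenic CD4+CXCR5+PD1+ cells, prepared 10x 5′ libraries, aligned reads to GRCm38 with Cell Ranger 4.0.0 and processed cells in Seurat 3.1.4, per the labels. The deposited expression table holds UMI counts corrected by sctransform, plus 1, on a natural log scale, made by the authors for each condition separately. The authors list the heat shock score among the variables regressed out with sctransform. Whether that step changed these counts was not tested. Back on the linear scale 100% of values were whole (tolerance 1e-06). The deposited heat shock score and mitochondrial percent were used as given, cluster names are the authors', and no doublet caller was run. Receptor tables were not used.

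Levels are means over cells per mouse of log2(corrected count + 1). The tests used limma 3.58.1 with its trend option in R 4.3.3, checked on simulated data, for genes found in 1% of cells or more in a number of mice equal to the smaller group. A call needs a Benjamini-Hochberg adjusted p below 0.01 and a log2 change above 0.2, and clusters need 20 cells per mouse. Each mouse is 1 replicate. Depth is 3424280 to 15241983 raw UMIs per library. The members, the lists and the contrast of T34 and T36 were chosen with earlier results of these data known. All members, the highest and lowest gene of each list and the 10 genes most alike to the members are named. Alternatives covered the trend, filter, threshold, averaging, scaling, pseudocount, cell depth, libraries, labelled sex, cluster weights and each mouse left out.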

Additional observations from a re-analysis of the deposited data

Results flagged for a closer look

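The Hsph1 level of 564Igi mouse 34, at 0.43, stood far from the other 4 mice of its condition, at 0.11 to 0.17. The Hsp90aa1 level of the same mouse, at 1.27, also stood far from the other 4, at 0.85 to 0.93. Both were found among 26 tests, each of 1 measure in the 5 mice of 1 condition. Chance would flag about 5% of independent tests. These tests share mice and related measures, so that rate does not give the chance of these flags. The same library, T34, is 1 of the 2 set against the others in the report.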

How the results depend on the processing

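The T34 and T36 count of 3 members became 0 in limma without the trend, 1 with no filter on low genes, 1 in cells with 2500 to 5000 raw UMIs and 4 at an adjusted p below 0.05 with no fold limit, and it was 1 to 5 with each mouse left out. The log2 differences of the members there kept their sign in all 136 values from alternatives, and the cause of the lost calls was not tested. The count of members called between conditions was 0 in all 155 alternatives, where a mouse that a cluster already lacked gave no value. Differences between conditions, none of them called, changed sign for Dnaja1 (-0.0084 scaled to equal totals, -0.018 without T34 and T36), Dnajb1 (-0.0056 in cells with 2500 to 5000 UMIs, -0.0020 without T34 and T36), Hsp90aa1 (-0.020 scaled, -0.022 without T34 and T36), Hspd1 (0.0014 with sex in the fit) and Hsph1 (-0.0034 with 3 clusters weighted equally, -0.012 without T34 and T36). With each mouse left out they ran from -0.12 to 0.11 for Dnaja1, -0.022 to 0.048 for Dnajb1, -0.070 to 0.055 for Hsp90aa1, -0.013 to 0.19 for Hsp90ab1, -0.0025 to 0.32 for Hspa8, -0.036 to 0.015 for Hspd1, -0.018 to 0.049 for Hspe1 and -0.054 to 0.047 for Hsph1. The score difference became 0.0032 in cells with 2500 to 5000 UMIs and ran from -0.028 to 0.015 with each mouse left out. No paired analysis was possible because the mouse numbers are not shared between conditions. With 5 mice per group and rare Hspa1a and Hspa1b counts, small differences were not detectable at this depth.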
